A study of Mus musculus with 9 samples.

Results

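The enzymes that make triglyceride, and those that supply its glycerol backbone, were followed across inguinal white adipose tissue of mice that lost Zfp423 in adipocytes, of cold-exposed controls and of controls at room temperature. The 10 symbols were Gpd1, Gpd2, Pck1, Gk, Gpam, Agpat9, Agpat2, Lpin1, Dgat1 and Dgat2. Members were the array rows that the platform annotation names with such a symbol alone, and for a gene with several rows the row with the highest mean over the 9 arrays. No row carried the symbol Gk, so this gene is not analysed here, and 9 members remained among 16918 genes tested. All 9 passed the filter on low values, a row mean of at least 5.31. Agpat9 is an older name of Gpat3: its brighter row is annotated to Gpat3 alone (Entrez gene 231510), while a fainter row of the same name also lists another Entrez gene, which the RefSeq gene table used here does not hold. The brighter row is the member, and the fainter row is given beside it.

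Knockout mice were Adiponectin-rtTA; Tre-CRE; Zfp423loxP/loxP, so that doxycycline turned on Cre under the adiponectin promoter and deleted the floxed alleles in adipocytes. The cold-exposed mice and the room temperature controls were both Adiponectin-rtTA; TRE-Cre; Zfp423+/+ and so carried the same transgenes without floxed alleles. All 3 groups ate doxycycline chow for 28 days from 8 weeks of age, and the cold group spent the last 14 of those days at 6 °C to form beige adipocytes. Each group had 3 arrays, and this number limits the precision. Nothing in the labels ties arrays to separate mice, so the p-values measure array-to-array spread that may be technical. The design asked how similar the tissue without adipocyte Zfp423 is to tissue with cold-induced beige adipocytes.

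Triglyceride is built on glycerol 3-phosphate, which white adipocytes draw mainly from dihydroxyacetone phosphate because they phosphorylate little free glycerol. Whether this holds in the tissue studied here was not tested, as no row carried the glycerol kinase Gk. Gpd1 makes glycerol 3-phosphate in the cytosol, Gpd2 oxidises it back at the mitochondrial inner membrane, and together they form the glycerol phosphate shuttle that brown fat uses heavily. Pck1, the cytosolic phosphoenolpyruvate carboxykinase, feeds the same pool from oxaloacetate in the route called glyceroneogenesis. Gpam and Gpat3 add the first acyl chain, Agpat2 the next, Lpin1 removes the phosphate, and Dgat1 and Dgat2 add the last acyl chain.

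Of the 9 members, 6 had RefSeq promoter windows (build GRCm38.p6, 250 bases before to 50 after the gene's start), and Gk had one as well. Dgat1, Dgat2 and Gpd1 were not matched. The windows shown are of Pck1, Gpam and Gpd2, chosen after values and letters were seen. Pck1 fell and Gpd2 rose in the cold, and the second Gpam window shares letters with that of Pck1. Cyclic AMP, which noradrenaline raises in adipocytes, is a classic regulator of Pck1. Its part in the cold values was not tested. Capitals mark the letters CGTCA on either strand, the core of the cyclic AMP response element.
Pck1 (chr2:173152823-173153122, plus strand): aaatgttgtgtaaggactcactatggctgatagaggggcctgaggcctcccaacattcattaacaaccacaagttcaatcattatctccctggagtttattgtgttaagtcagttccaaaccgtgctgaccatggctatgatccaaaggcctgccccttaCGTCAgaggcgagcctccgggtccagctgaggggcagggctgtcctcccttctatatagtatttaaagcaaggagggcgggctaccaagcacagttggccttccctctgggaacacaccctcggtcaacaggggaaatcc
Gpam, second window (chr19:55099428-55099727, minus strand): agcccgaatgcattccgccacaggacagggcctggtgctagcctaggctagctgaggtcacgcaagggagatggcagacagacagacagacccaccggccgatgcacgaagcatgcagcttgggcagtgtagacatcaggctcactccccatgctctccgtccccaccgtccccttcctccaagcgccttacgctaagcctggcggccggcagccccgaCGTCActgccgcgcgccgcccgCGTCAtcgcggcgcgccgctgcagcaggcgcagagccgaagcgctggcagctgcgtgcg
Gpd2, first window (chr2:57237428-57237727, plus strand): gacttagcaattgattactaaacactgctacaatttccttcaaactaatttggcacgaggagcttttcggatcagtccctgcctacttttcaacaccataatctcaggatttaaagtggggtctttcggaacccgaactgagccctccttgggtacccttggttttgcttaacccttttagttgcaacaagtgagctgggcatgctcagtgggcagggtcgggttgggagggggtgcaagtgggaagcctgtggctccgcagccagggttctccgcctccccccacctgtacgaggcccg
The Pck1 window held TTACGTCA once, with its first letter at position -93 relative to the first base of the gene. These letters were searched as the Pck1 form of the element, so the match was set in advance. They stand on either strand in 0.499% of 32841 windows of 300 bases. The 8-letter form TGACGTCA, found in 1.79% of windows, stood in none of the member windows. The second Gpam window held CGTCA at 2 places, with first letters at positions -31 and -9. The Agpat9 (Gpat3) window held it at -152 and the Gk window at -4, and the windows of Agpat2 and Lpin1, the first of Gpam and both of Gpd2 did not hold it. CGTCA stands in 20.8% of all windows on either strand, and these matches are a description of the letters only.

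Values are the authors' log2 values. Zfp423 itself read 7.56, 8.15 and 8.04 in knockouts, against 8.74, 8.22 and 8.40 in controls, at a difference of -0.53 ± 0.20 (SE) that did not pass (limma adjusted p = 0.256; exact permutation p = 0.1, two-sided, the smallest that 3 against 3 allows). Within each group 1 array lay between its companions for more genes than the others did, namely knockout replicate 3 for 65.6%, cold replicate 2 for 47.9% and control replicate 3 for 58.2% of genes. Whether these middle arrays are independent samples was not tested; if they are not, each group holds fewer than 3, and the standard errors and p-values below do not hold as given. Without them, limma called 0 of all 16918 genes, and so 0 members, in each comparison. At an unadjusted p under 0.05 there were 0 members among 689 genes in knockouts against controls. There were 4 among 791 genes in cold against controls and 2 among 986 in cold against knockouts. Adipoq, an adipocyte hormone that marks the labelled tissue, read between 14.70 and 14.76 in knockouts, between 14.71 and 14.78 in the cold and between 14.92 and 15.34 in controls. All 7 epithelial markers lay under the filter, as did the liver markers Apoa1 and Ttr, while the liver marker Alb passed it.

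**Figure D1:**
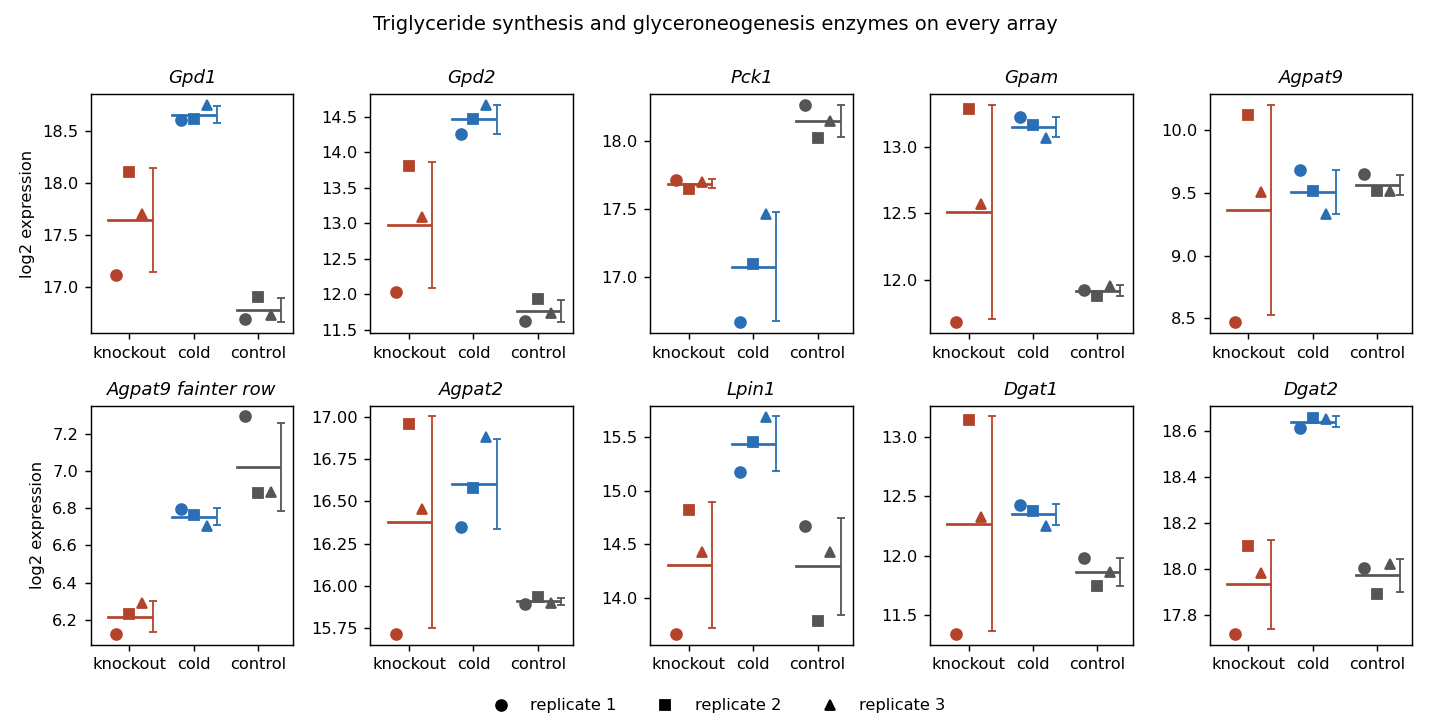
Log2 expression (y axis) of the 9 members and of the fainter Agpat9 row on each array, by group (x axis), with the symbol giving the replicate, the horizontal line the group mean and the bar its SD (n = 3). Gpd1, Gpd2, Lpin1 and Dgat2 are highest in the cold group and Pck1 is lowest there, while 8 of 9 members spread from knockout replicate 1 at the bottom to knockout replicate 2 at the top.

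In the cold, the enzymes on both sides of the glycerol phosphate shuttle rose, as did the acyltransferase Dgat2, while Pck1 fell. With limma over all 9 arrays and Benjamini-Hochberg adjustment over all genes, 3 members rose (Gpd2, Gpd1 and Dgat2), 1 fell (Pck1) and 5 did not pass. Over all genes 1.51% were called, 1.32% higher and 0.189% lower. At an unadjusted p under 0.05 there were 7 members, against 20.3% of all genes. Cold and control arrays did not overlap for 8 of 9 members, against 32.7% of all genes, 7 of them higher (14.6% of all genes) and 1 lower (18.1%). The median difference of the 9 members was 0.69 log2 units, and that of all genes -0.02.

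Gpd2 read 14.26, 14.46 and 14.66 in the cold, against 11.62, 11.94 and 11.74 in controls. Every cold array stood well above every control array, and the difference of 2.70 ± 0.40 (SE) was a 6.48-fold rise on the linear scale (limma adjusted p = 0.0291). Gpd1 read 18.61, 18.62 and 18.75 in the cold, against 16.69, 16.91 and 16.73 in controls. It rose by 1.88 ± 0.22, or 3.68-fold (limma adjusted p = 0.0140), with cold arrays close together and not far below 19.93, the highest value of the table.

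Pck1 was the exception among the members. It read 16.66, 17.09 and 17.47 in the cold, against 18.27, 18.03 and 18.15 in controls, and every cold array was below every control array. The difference of -1.08 ± 0.18 was a 2.11-fold fall (limma adjusted p = 0.0421), and the cold arrays spread more (SD 0.40) than the controls (SD 0.12, n = 3 each). The call ended with only cold and control arrays fitted, with quantile normalization, with no filter on low values and with the replicate number as a block (limma adjusted p = 0.0521, 0.0793, 0.077 and 0.12). Pck1 passed in 9 of 20 alternatives, against 10 for Gpd2, 11 for Dgat2 and 13 for Gpd1. The calls of Gpd2, Dgat2 and Gpd1 also ended with the replicate block, and that of Gpd2 with no filter. The mitochondrial isoenzyme Pck2 read between 7.26 and 7.38 in the cold and between 7.36 and 7.47 in controls, a difference of -0.06 ± 0.06 that did not pass (limma adjusted p = 0.59).

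Among the acylating enzymes, Gpam, the mitochondrial glycerol-3-phosphate acyltransferase, read 13.22, 13.16 and 13.07 in the cold, against 11.92, 11.88 and 11.95 in controls. The groups were far apart relative to their own spread (SD 0.08 and 0.04), but the difference of 1.23 ± 0.35 did not pass (limma adjusted p = 0.131). The standard error of the fit is shared by the 3 groups and includes the knockout arrays, where Gpam had an SD of 0.80; with only cold and control arrays fitted, Gpam passed (limma adjusted p = 0.00109), as did Dgat1, Dgat2, Gpd1 and Gpd2 but not Pck1, and 7.97% of all genes were called. Agpat2, the lysophosphatidate acyltransferase whose loss causes lipodystrophy in humans, read 16.35, 16.58 and 16.88 in the cold, against 15.89, 15.93 and 15.90 in controls, at 0.69 ± 0.29 (limma adjusted p = 0.246). Its groups did not overlap, and it did not pass. Agpat9 (Gpat3), an acyltransferase of the endoplasmic reticulum, read 9.69, 9.51 and 9.33 in the cold, against 9.65, 9.51 and 9.52 in controls. It was the 1 member whose cold and control arrays overlapped, at -0.05 with a 95% interval from -0.92 to 0.82.

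The phosphatidate phosphatase Lpin1 read 15.18, 15.45 and 15.69 in the cold, against 14.67, 13.79 and 14.43 in controls. All cold arrays were higher, and the difference of 1.14 ± 0.34 did not pass (limma adjusted p = 0.143). Dgat2, the acyltransferase linked to newly made fatty acids, read 18.61, 18.65 and 18.65 in the cold, against 18.01, 17.89 and 18.02 in controls. It rose by 0.67 ± 0.09, or 1.59-fold (limma adjusted p = 0.0256), with an SD of 0.02 in the cold and 0.07 in controls. Like those of Gpd1, its cold arrays were not far below 19.93, the highest value of the table. Dgat1, the other diacylglycerol acyltransferase and no sequence relative of Dgat2, read 12.42, 12.37 and 12.25 in the cold, against 11.98, 11.75 and 11.86 in controls. Its cold arrays were all higher, at 0.48 ± 0.39, and it did not pass (limma adjusted p = 0.508).

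The calls depended on single arrays more than the sizes did. Leaving out 1 array at a time kept the difference between 2.60 and 2.80 for Gpd2, between 1.84 and 1.95 for Gpd1, between 0.63 and 0.69 for Dgat2, and between -1.27 and -0.87 for Pck1. The number of members past the threshold was 0 without control replicate 1 or 3 or cold replicate 1 or 2, 1 (Gpd1) without control replicate 2 or knockout replicate 3, and 1 (Pck1) without cold replicate 3, in fits that called 0.136% to 0.727% of all genes. Without knockout replicate 1 or 2, all 4 members passed and Gpam with them, where 4.88% and 5.83% of all genes were called.

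**Figure D2:**
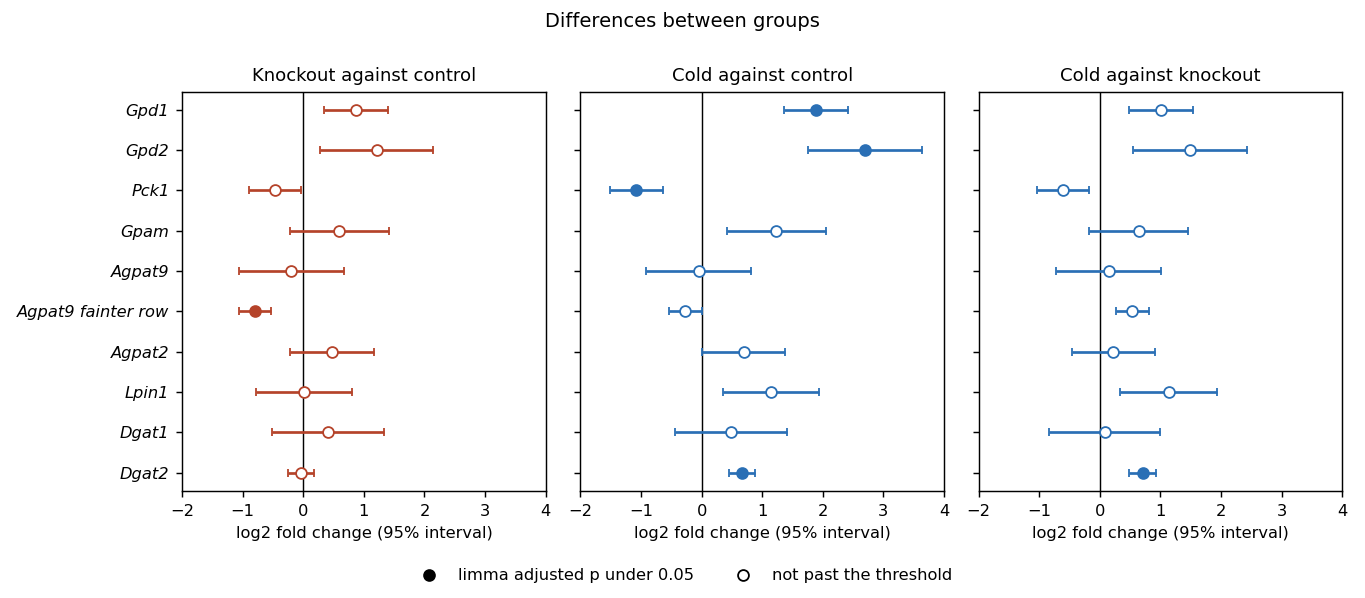
Log2 fold change (x axis) of each member and of the fainter Agpat9 row (y axis) in 3 comparisons, with the 95% interval of the limma fit, not adjusted for the number of genes; filled points passed the threshold. In the cold against control panel Gpd1, Gpd2 and Dgat2 lie to the right and Pck1 to the left, in the knockout against control panel the fainter Agpat9 row is the filled point, and in the cold against knockout panel it is Dgat2.

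In the knockouts no member passed, although Gpd1 and Gpd2 lay above controls and Pck1 below on every array. Of the 9 members, limma called 0, against 0.366% of all genes (0.225% higher and 0.142% lower), and 3 at an unadjusted p under 0.05, against 16.2%. Knockout and control arrays did not overlap for 3 of 9 members, against 17.3% of all genes, with 2 higher (9.3% of all genes) and 1 lower (8.01%). The median difference of the members was 0.41, and that of all genes 0.02. The members' median was 0.80 without knockout replicate 1 and -0.03 without knockout replicate 2.

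Gpd1 read 17.12, 18.11 and 17.71 in knockouts, above every control array, at 0.87 ± 0.22 (limma adjusted p = 0.131). Gpd2 read 12.03, 13.81 and 13.08 in knockouts, also above every control array, at 1.21 ± 0.40 (limma adjusted p = 0.207). Pck1 read 17.71, 17.65 and 17.70 in knockouts, below every control array, at -0.46 ± 0.18 (limma adjusted p = 0.279). Its knockout arrays agreed closely (SD 0.04), unlike those of the other 8 members.

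The other members overlapped between knockouts and controls. Gpam read 11.68, 13.28 and 12.57 in knockouts, at 0.59 ± 0.35, and Agpat2 read 15.72, 16.96 and 16.46, at 0.47 ± 0.29 (limma adjusted p = 0.45 and 0.477). Dgat1 read 11.35, 13.14 and 12.32 in knockouts, at 0.41 ± 0.39 (limma adjusted p = 0.651). For these 3 enzymes knockout replicate 1 was below every control array and knockout replicates 2 and 3 above. Lpin1 read 13.67, 14.82 and 14.43 in knockouts, at 0.01 with a 95% interval from -0.79 to 0.81. Dgat2 read 17.72, 18.10 and 17.98 in knockouts, at -0.04 with an interval from -0.26 to 0.18, so a difference as large as that in the cold lay outside its interval.

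Agpat9 (Gpat3) read 8.47, 10.12 and 9.51 in knockouts, at -0.19 ± 0.37 (limma adjusted p = 0.832). The fainter row of the same name read 6.13, 6.23 and 6.29 in knockouts, against 7.29, 6.88 and 6.89 in controls, and fell by 0.80 ± 0.11 (limma adjusted p = 0.0470). In the cold it read 6.79, 6.76 and 6.70, at -0.27 ± 0.11 (limma adjusted p = 0.246). The rows thus differed within the knockouts, where the brighter row spread from 8.47 to 10.12 and the fainter did not. Of 20 alternatives the fainter row passed in 7, with adjusted p between 2.42e-07 and 0.948. Its call ended without control replicate 1 or 3, knockout replicate 2 or 3, or any 1 cold replicate (limma adjusted p between 0.053 and 0.228).

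The members varied together among the knockout arrays. For 8 of 9, replicate 1 was lowest, replicate 3 in the middle and replicate 2 highest, an order that 30.6% of all genes had. The gap between replicates 2 and 1 ran from 0.38 (Dgat2) to 1.80 (Dgat1) in these 8, and Pck1 had the reverse order with a gap of -0.07. The median SD of the members was 0.63 in knockouts, 0.18 in the cold and 0.12 in controls, and that of all genes 0.14, 0.08 and 0.11. Without knockout replicate 1, 3 members rose against control (Gpam at 1.01, Gpd1 at 1.13 and Gpd2 at 1.68) and 4.89% of all genes were called.

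Markers of adipocytes and of other cells also differed between arrays, and their part in the member values was not tested. Relative to the control mean, the 9 measured of 10 adipocyte markers averaged -0.57, -0.02 and -0.21 in knockout replicates 1, 2 and 3, and the 8 thermogenic markers, Ucp1 and Cidea among them, 2.63, 5.24 and 4.37. The 7 measured of 8 T cell markers stood at 1.48, -0.25 and 0.86 and the 10 macrophage markers at 0.50, -1.07 and -0.14 on the same arrays. In cold replicates 1, 2 and 3 the adipocyte markers stood at 0.14, 0.10 and 0.00 and the thermogenic markers at 4.12, 3.90 and 3.69. The T cell markers stood there at -0.98, -0.99 and -1.07 and the macrophage markers at -1.17, -1.05 and -0.94. The 9 members averaged 0.75, 0.86 and 0.95 on these arrays, and -0.31, 0.86 and 0.39 in knockout replicates 1, 2 and 3. The 6 measured of 7 progenitor and fibroblast markers stood between -1.04 and -0.14 in knockouts and between -0.96 and -0.88 in the cold. The 7 endothelial markers stood between -0.54 and 0.25 in knockouts and between 0.17 and 0.44 in the cold. The 5 measured of 6 B cell markers stood at 0.58, -0.997 and -0.07 in knockouts and between -1.87 and -0.75 in the cold, against -0.86 to 0.83 in controls. The 10 skeletal muscle markers, a tissue that also uses the glycerol phosphate shuttle, stood at -1.40, 0.23 and -0.36 in knockout replicates 1, 2 and 3 and at 0.31, -0.70 and -3.74 in cold replicates 1, 2 and 3. In the cold, Gpd1 and Gpd2 were highest on the array with the lowest muscle signal, and in knockouts on the array with the highest. The part of muscle in these values was not tested. In whole tissue, fewer cells of a type and less RNA per cell cannot be told apart.

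**Figure D3:**
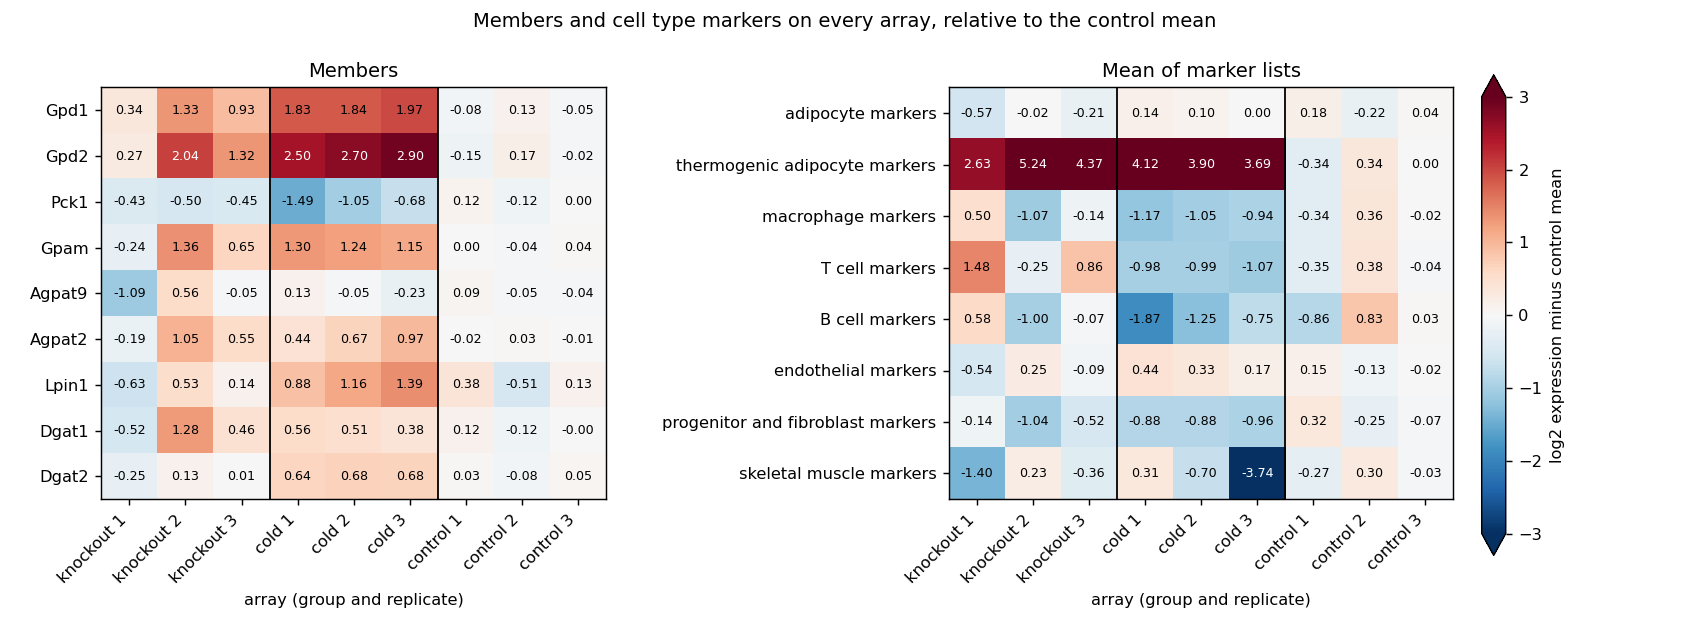
Log2 expression minus the control mean for each member (left) and for the mean of 8 cell type marker lists (right), by array (columns, grouped as knockout, cold and control); colours saturate at 3 units either way. Knockout replicate 1 is blue or pale for every member, replicate 2 red for most, and the cold columns are red for Gpd1, Gpd2, Gpam, Lpin1, Agpat2, Dgat1 and Dgat2 and blue for Pck1.

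Set directly against the knockouts, the cold tissue held more Dgat2. It read 18.61, 18.65 and 18.65 in the cold, against 17.72, 18.10 and 17.98 in knockouts, and rose by 0.71 ± 0.09, or 1.63-fold (limma adjusted p = 0.0197). It was the 1 member of 9 that passed, against 2.39% of all genes (1.24% higher and 1.15% lower), and 5 had an unadjusted p under 0.05, against 26.7%. Cold and knockout arrays did not overlap for 5 members, against 32.3% of all genes, with 4 higher (12.3%) and 1 lower (20%). The other 4 of these were Gpd1, higher by 1.01 ± 0.22, Gpd2 by 1.49 ± 0.40, Lpin1 by 1.13 ± 0.34, and Pck1 at -0.61 ± 0.18, none of which passed (limma adjusted p = 0.0629, 0.0825, 0.0998 and 0.0995). Gpam, Agpat2, Agpat9 and Dgat1 overlapped, at 0.64, 0.22, 0.14 and 0.08, and the widest 95% interval among them, that of Dgat1, ran from -0.85 to 1.00. The median difference of the members was 0.64, and that of all genes -0.03. The members' median was 0.22 without knockout replicate 1 and between 0.60 and 0.79 without any other 1 array. The Dgat2 call ended without control replicate 3, knockout replicate 3 or any 1 cold replicate, at differences between 0.60 and 0.79 over all arrays left out in turn. Without knockout replicate 2 the number of members past the threshold was 5 (Gpd1, Gpd2, Gpam, Lpin1 and Dgat2), and 16% of all genes were called. The knockout and cold comparisons share the control arrays, and the order of group means was cold, knockout, control for Gpd1, Gpd2, Gpam, Agpat2, Dgat1 and Lpin1, and the reverse for Pck1, with neighbours that overlap named above.

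Around the members, 41 further genes of triglyceride synthesis and its carbon supply were listed, of which 31 were tested; Acsl1 and Acsl3 are among the 10 not tested. In the knockouts 0 rose, 1 fell (Slc25a10) and 30 did not pass, against 0.366% of all genes called, with a median of 0.08 (all genes 0.02). In the cold 4 rose, 0 fell and 27 did not pass, against 1.51% of all genes, with a median of 0.29 (all genes -0.02). For cold against knockout, 4 were higher (Slc25a10, Acsl5, Slc25a1 and Lpin3) and 0 lower, against 2.39% of all genes, with a median of 0.06 (all genes -0.03). The counts moved with single arrays. The share of all genes called moved as well and is given in brackets. In the knockouts the count was 7 when knockout replicate 1 was left out (4.89%) and 1 for control replicate 2 (2.01%). It was 0 without any other 1 array (0% to 0.219%). In the cold it was 9 when knockout replicate 1 was left out (4.88%) and 7 for knockout replicate 2 (5.83%). With any other 1 array removed it was 1 (0.136% to 0.727%). For cold against knockout it was 8 when knockout replicate 2 was left out (16%). It was 2 without control replicate 3, knockout replicate 3, or cold replicate 2 or 3 (0.0828% to 0.916%). Otherwise it was 3 or 4 (0.579% to 3.8%). The lists were chosen with earlier results of these data known.

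Of the 3 listed mitochondrial carriers of dicarboxylates and citrate, Slc25a10 passed against control. Slc25a10, the dicarboxylate carrier that exports malate, read 9.57, 9.91 and 9.80 in knockouts, 11.83, 12.10 and 12.39 in the cold and 10.86, 11.23 and 10.99 in controls. It fell by 1.26 ± 0.16 in knockouts and rose by 1.08 ± 0.16 in the cold (limma adjusted p = 0.0442 and 0.0316), and the 3 groups did not overlap. Cold stood above knockout by 2.35 ± 0.16 (limma adjusted p = 0.00301), a call that held in 19 of 20 alternatives. Slc25a1, the citrate carrier, read 12.07, 13.01 and 12.57 in knockouts, 14.02, 14.35 and 14.55 in the cold and 13.38, 13.38 and 13.38 in controls. It was higher in cold than in knockout tissue by 1.76 ± 0.24 (limma adjusted p = 0.0197), while its differences from control of -0.83 ± 0.24 in knockouts and 0.93 ± 0.24 in the cold did not pass (limma adjusted p = 0.157 and 0.108). Slc25a11, the oxoglutarate and malate carrier, read 11.47, 11.89 and 11.75 in knockouts, 11.47, 11.51 and 11.47 in the cold and 11.16, 11.17 and 11.07 in controls. Both groups lay above every control array, at 0.57 ± 0.10 in knockouts and 0.35 ± 0.10 in the cold, without passing (limma adjusted p = 0.0618 and 0.127).

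Pcx, the pyruvate carboxylase that makes oxaloacetate upstream of Pck1, read 12.47, 13.28 and 12.83 in knockouts, 13.67, 14.18 and 14.57 in the cold and 13.64, 13.74 and 13.68 in controls. Knockout arrays were lower than controls at -0.82 ± 0.26, and this did not pass (limma adjusted p = 0.195). The carbon supply genes did not fall as a list. Of the 11 tested, 6 stood above 0 in knockouts against control, with a median of 0.32. Got1 had the largest difference among them, at 1.95 ± 0.63, without passing (limma adjusted p = 0.200). Mdh2, the mitochondrial malate dehydrogenase, rose by 1.42 ± 0.24 in the cold (limma adjusted p = 0.0438) and stood at 1.04 ± 0.24 in knockouts without passing (limma adjusted p = 0.107). Acsl5, an acyl-CoA synthetase that activates fatty acids for esterification, read 13.48, 13.30 and 13.42 in the cold, against 11.56, 11.67 and 11.62 in controls. It rose by 1.78 ± 0.15 (limma adjusted p = 0.00397), passed in 19 of 20 alternatives, and stood at -0.09 ± 0.15 in knockouts (limma adjusted p = 0.791). With the mean of all its rows in place of the brightest, its difference was 1.00 against control and 1.04 against knockouts, where the brightest row gave 1.87. Lpin3, a relative of Lpin1 whose row lay near the filter, rose by 0.37 ± 0.06 in the cold (limma adjusted p = 0.0321). Gpat4, the acyltransferase next to Gpat3 in the endoplasmic reticulum, stood at 0.79 ± 0.22 in knockouts and 0.87 ± 0.22 in the cold, above every control array in either group, without passing (limma adjusted p of 0.146 and 0.103).

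Single arrays decided several of these calls. The fall of Slc25a10 in knockouts ended without control replicate 1 or 3, knockout replicate 2 or 3, or any 1 cold replicate (limma adjusted p between 0.0631 and 0.228). The rises of Slc25a10, Mdh2 and Lpin3 in the cold passed without knockout replicate 1 or 2 and ended without any other 1 array (limma adjusted p up to 0.152, 0.187 and 0.151). The Slc25a1 difference between cold and knockout ended without control replicate 3, knockout replicate 3, or cold replicate 2 or 3, and that of Lpin3 without control replicate 3, knockout replicate 1 or 3, or any 1 cold replicate (limma adjusted p up to 0.109 and 0.161). Over the 20 alternatives Slc25a10 passed in 8 for knockouts and 10 for the cold, and Mdh2 in 10; Lpin3 passed in 10 of 19, since it lay under the stricter filter.

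**Figure D4:**
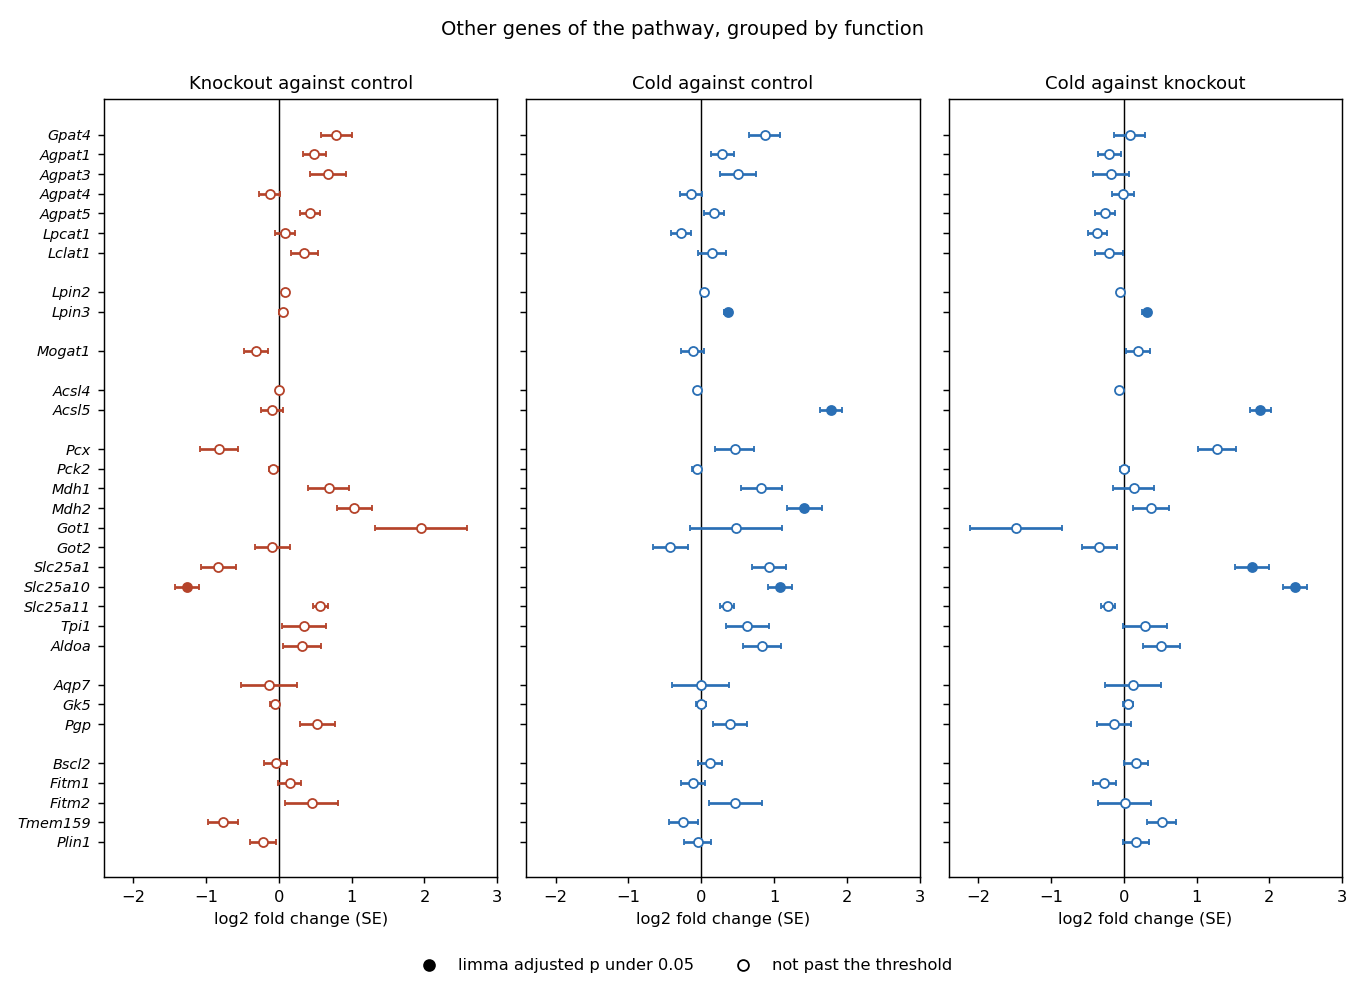
Log2 fold change ± SE (x axis) of the 31 other pathway genes (y axis, in blocks by function) in 3 comparisons; filled points passed the threshold. Slc25a10 lies left of 0 in knockouts and right of 0 in the cold, and Acsl5, Mdh2, Lpin3 and Slc25a10 are the filled points of the cold against control panel.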

How the data were processed

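Trizol-extracted RNA of inguinal white fat was amplified, biotin-labelled and read on 1 Affymetrix array per sample, per the labels' protocols. The deposited values, 72688 rows on 9 arrays, run from 1.84 to 19.93 with nearly equal quartiles and were taken as log2. They were made by the authors with Affymetrix Expression Console, per the submitters' processing notes; no version, normalization method or build was found in the labels, and no detection call is used. Rows naming 1 gene (31056, symbols updated through Entrez IDs and RefSeq GRCm38.p6, names only) were kept at a row mean of at least 5.31, the median row mean, and the brightest row per gene was used, which left 16918 genes. The platform annotation named several genes for 1529 transcript rows and none for 33185.

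Groups came from sample titles. R 4.3.3 and limma 3.58.1 (lmFit, eBayes) fitted 3 group means over 9 arrays; contrasts were tested two-sided with Benjamini-Hochberg adjustment over all genes at 0.05. All 10 symbols were to be named, with pathway genes that passed and a few others as values. Pck2, Pcx, Gpat4, Slc25a11 and Got1 were chosen after their values were seen. Members and lists were chosen with earlier results of these data known. The fit was tested on simulated data. Alternatives were the normalization, the filter, the row per gene, the variance model, weights, the arrays fitted and a replicate block.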

Additional observations from a re-analysis of the deposited data

How the results depend on the processing

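Over the alternatives, the count of members past the threshold ranged more than the differences themselves. For knockout against control it was 0, and it was 7 with array weights, whose estimate stopped before convergence and which called 69.9% of all genes. For cold against control it was 4, and it was 2 with no filter on low values, where 0.423% of all genes were called. It was 8 with array weights (53% of all genes) and 0 with the replicate block (0.248%). It was also 0 without the array of each group between the other 2, an alternative chosen after seeing the data that called 0 genes. For cold against knockout it was 1, and it was 2 with quantile normalization (3.34% of all genes) and 6 with array weights (59%). It was 0 with the replicate block (0.213%) and 0 without those arrays, where 0 genes were called. Leaving out 1 array at a time gave 0 to 3, 0 to 5 and 0 to 5 members for these comparisons. Zfp423 stood at -0.36 with array weights and passed there (limma adjusted p = 3.66e-05), and between -0.65 and -0.36 with 1 array left out. The knockout against control count of all genes was 62 and fell to 14 with no filter and 1 with the replicate block, and it was 340 and 827 without control replicate 2 and knockout replicate 1. It was 0 with only those groups fitted (1951 genes at an unadjusted p under 0.05). For cold against control it was 255, 130 with no filter, 42 with the block and 1348 with only those groups fitted. For cold against knockout it was 405, 222 with no filter, 36 with the block and 353 with only those groups fitted. With 1 array left out these counts ranged from 0 to 827, 23 to 986 and 14 to 2702. Deviations of same-numbered arrays from their group means had correlations of -0.46 to 0.08 over genes. Those of arrays with different numbers ran from -0.23 to 0.47, the highest for control replicate 2 with knockout replicate 1. With 3 arrays a group, these correlations cannot decide whether the numbers pair the samples.

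Signs turned only for differences that did not pass in the fit over all arrays. In knockouts against control, Lpin1 was -0.045 with quantile normalization and Acsl5 0.0090 with array weights. With 1 array left out, knockout minus control ranged from -0.25 to 0.33 for Lpin1, -0.57 to 0.25 for Agpat9, -0.030 to 0.87 for Dgat1, -0.12 to 0.068 for Dgat2 and -0.22 to 0.086 for Acsl5. Lpin1 was -0.24 without control replicate 2 and -0.05 without knockout replicate 3. Agpat9 in the cold ranged from -0.14 to 0.039. Cold minus knockout ranged from -0.11 to 0.51 for Agpat2, -0.30 to 0.52 for Agpat9, -0.39 to 0.51 for Dgat1 and -0.16 to 0.33 for Gpat4, each negative without knockout replicate 1, and from -0.046 to 0.047 for Pck2. Pck2 was 0.014 for cold against control with quantile normalization and -0.015 for cold against knockout with array weights. The cause was not tested. With 3 arrays a group and a wide spread among the knockout arrays, differences of about their size could miss the threshold.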

Other observations

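Arrays in the middle of their group lay close to the mean of their companions. For the 9 members, knockout replicate 3 differed from the mean of knockout replicates 1 and 2 by 0.02 to 0.22 log2 units, although those replicates differed from each other by up to 1.80 (Dgat1). Cold replicate 2 differed from the mean of cold replicates 1 and 3 by -0.06 to 0.04, with a gap of 0.81 between those replicates for Pck1. Over all genes the median absolute difference from the mean of the other arrays was 0.060 for knockout replicate 3, 0.055 for cold replicate 2 and 0.058 for control replicate 3, and between 0.086 and 0.180 for the other 6 arrays. Array weights gave knockout replicate 3 a weight of 1453 and the other knockout arrays 0.096 and 0.084. The cause was not tested, nor was whether these arrays are independent of their companions.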
